A study of Sus scrofa with 2 samples.

Results

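The nuclear genes UQCR10, ATP5G1, ATP5E and COX7A1 encode subunits of the mitochondrial respiratory chain and of the ATP synthase, and their transcripts were compared in ovaries of conventional pigs and minipigs. They were taken as a set with earlier results of these arrays known, UQCR10 and ATP5G1 from the upper end of the measured chain genes and ATP5E and COX7A1 from the lower end, so the contrast between the pairs describes how they were picked. Probes were assigned to a gene through the transcript accession that the array gives them, looked up, with its version dropped, in the pig RefSeq table. This gave 5 probes for the 4 genes, 2 of them for ATP5E and 1 for each other gene, out of 43597 probes other than controls, of which 5577 could be named. All 4 genes had a value, out of 2363 named genes with a value.

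The RNA came from ovaries freed of corpora lutea on day 15 of the estrous cycle, when the corpus luteum regresses. One group was conventional pigs (Yorkshire sows) and the other minipigs (Midget), all females 10 months old that had completed several cycles, with no treatment named for either. The methods give 5 animals per breed and do not say whether an array carried RNA of 1 animal or a pool. Each breed had 1 single-colour Agilent array, called the pig array and the minipig array here, which carries long oligonucleotide probes on a slide and reports the fluorescence bound to each, and both arrays lay on the same slide.

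The respiratory chain passes electrons from NADH and succinate through complexes I to IV of the inner mitochondrial membrane to oxygen, and the proton gradient it builds drives the ATP synthase. Most subunits are encoded in the nucleus and a few in mitochondrial DNA. In the ovary, mitochondria also carry out the first step of steroid synthesis, the cleavage of the cholesterol side chain by CYP11A1, and the oocyte is rich in them. UQCR10 is a small subunit of complex III, the cytochrome bc1 complex. ATP5G1, now also written ATP5MC1, is one of several genes for subunit c, which forms the rotor ring of the ATP synthase in the membrane. ATP5E, now ATP5F1E, is the epsilon subunit of its central stalk. COX7A1 is the isoform of cytochrome c oxidase subunit 7A typical of heart and skeletal muscle, and COX7A2 is its more widely expressed counterpart.

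Every value below is the intensity corrected for background by the scanner software, or its log2 after the 75th percentile of the array was set to 0, which is called the level here. Differences are the level on the pig array minus the level on the minipig array, as the scanner files are labelled. A log2 table that the authors also deposited exchanges the breeds: its minipig column is the pig scan less a constant in all 5613 probes compared, with a largest departure of 7.46e-07, so that by its labels each sign below is turned. With 1 array per breed there is no test and no replicate check, and the values describe these 2 arrays. In such tissue, fewer cells of a type and less RNA per cell cannot be told apart. The arrays were alike in quality, with 88.1% of probes well above background on the minipig array and 85.2% on the pig array, no saturated spot, and a correlation of 0.955 across the 36659 probes above background on both. Probes printed several times gave the only technical spread, an SD of 0.25 (42 probes) for a log2 difference between single spots.

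UQCR10 transcripts were higher on the pig array. Its probe read 11026 ± 1103 on the minipig array and 37969 ± 3797 on the pig array, where the errors are those of the scanner software's error model for a single spot. The levels were 4.48 and 6.21, a log2 difference of 1.73 ± 0.20 (error model) or 3.32-fold. Of the 2363 named genes, 106 had a higher difference.

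ATP5G1 stood close to it. The probe read 11057 ± 1106 on the minipig array and 30863 ± 3086 on the pig array, a log2 difference of 1.43 ± 0.20 or 2.69-fold, with 152 named genes above it. The gap between UQCR10 and ATP5G1 was 0.30 on the log2 scale, within the SD of 0.36 that single spots give for such a gap. Both genes were read by 1 probe. Whether the ATP5G1 probe also binds transcripts of the other subunit c genes was not tested.

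COX7A1 was the lower one on the pig array, with 3898 ± 390 on the minipig array and 2871 ± 287 on the pig array. The log2 difference was -0.49 ± 0.20, or 1.41-fold higher on the minipig array, and 19.3% of the named genes lay below it. The SD of repeated spots is 0.25 on this scale. The distance of COX7A1 from UQCR10 was 2.22 on the log2 scale, and this distance does not depend on any constant subtracted from an array.

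ATP5E had no single direction. Its dimmer probe read 840 ± 84.1 on the minipig array and 475 ± 47.6 on the pig array, a log2 difference of -0.88 ± 0.20. Its brighter probe read 28938 ± 2894 and 42449 ± 4245 in the same order, a log2 difference of 0.50 ± 0.20. Both probes carry the same transcript accession and both were well above background, yet they were 1.38 apart on the log2 scale, more than the 0.36 expected from single spots. The median over the probes, -0.19, lies between values of opposite sign, so the gene is uncertain and is named with both of them.

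**Figure D1:**
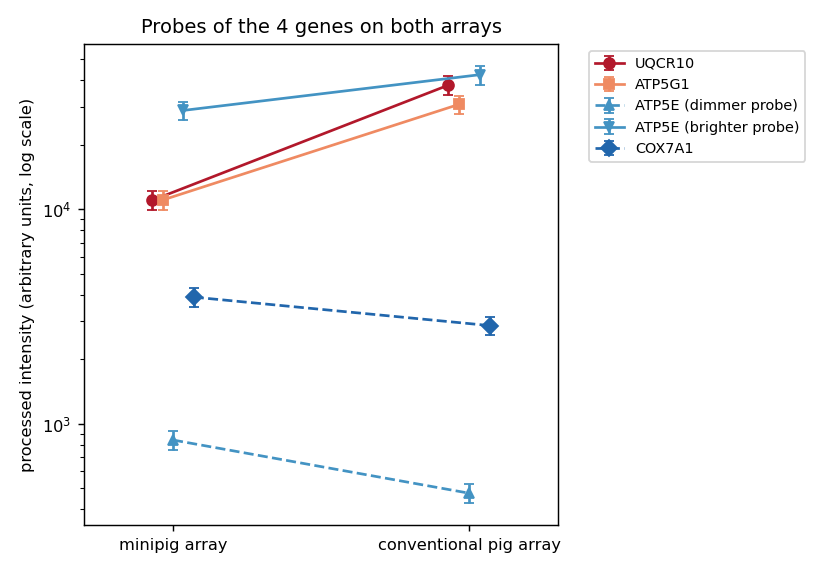
Processed intensity of each of the 5 probes on the minipig array and on the pig array, on a log axis in arbitrary units; bars are the error of the scanner software for 1 spot and solid lines mark probes that were higher on the pig array. UQCR10 and ATP5G1 run steeply upward, to 37969 and 30863, COX7A1 runs downward to 2871, and the ATP5E probes run in opposite directions. Heights of different probes are not comparable, since probes bind with different strength.

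Among the 10 pairs that can be made of the 5 probes, 8 had a gap of more than 2 SD of repeated spots. The pairs share the same 5 probes, and the genes were picked from both ends of the chain list. Large gaps were thus given by the choice, and their count is no test. The exceptions were UQCR10 with ATP5G1, and COX7A1 with the dimmer ATP5E probe (gap 0.38). The order from high to low was UQCR10 and ATP5G1, then the brighter ATP5E probe, then COX7A1 and the dimmer ATP5E probe. Neighbours inside each of the outer pairs were less than 2 SD of repeated spots apart. The spread covers the spots only, not the animals and not the choice of probe, which set the ATP5E probes 1.38 apart.

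Bright probes as a whole leaned toward the pig array, by less than UQCR10 and ATP5G1 did. Among the 500 probes nearest to UQCR10 in mean level, the median log2 difference was 0.21, 24.4% were past 2-fold on the pig side, and 91.6% had a lower difference than UQCR10. Around ATP5G1 the median was 0.25, and 85.4% lay below it. COX7A1 lay on the other side: the probes nearest to it in level had a median of 0.27, and 15.2% of them lay below it. The genes were picked by these differences, so such ranks are no test of them. For the ATP5E probes the medians were 0.01 around the dimmer one, with 9.80% below it, and 0.07 around the brighter one, with 66.2% below it. Position on the slide was compared in the same way, through the probes within 10 rows and 10 columns: their median difference was 0.12 around UQCR10, -0.23 around ATP5G1, 0.05 around COX7A1, and -0.12 and -0.11 around the dimmer and brighter ATP5E probes. Local background around these spots was between 20.0 and 27.0 on either array.

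The other subunits were read from a list of 99 genes of complexes I to IV, cytochrome c and the ATP synthase, of which 82 symbols were found in the RefSeq table and 21 had a value, so the list stands for those 21 genes and not for the chain. The list includes the 4 genes above. Higher on the pig array were 18 of the 21 genes (85.7%), against 52.5% of all named genes. At least 2-fold higher were 7 (33.3%), against 11.7% of all named genes, and 0 were that far on the minipig side, against 7.96%. The median log2 difference of the list was 0.88 and that of all named genes 0.04. Without the 4 genes 16 of 17 genes were higher on the pig array and 5 of them at least 2-fold. The median stayed at 0.88, which is no check. UQCR10 and ATP5G1 lie above it and ATP5E and COX7A1 below it, so leaving them out could not move it. The list was also set beside probes of like brightness. Of its 79 probes above background on both arrays, 32.9% were at least 2-fold higher on the pig array, with a median log2 difference of 0.85. Among the 500 probes nearest in level to each of them, this share had a median of 21.8% (1.40% to 28.2%) and the median difference one of 0.22 (-0.22 to 0.39), and 69 of the 79 probes lay above the median of their own neighbours in level. These probe counts weight a gene by its number of probes, such as 12 for CYCS and 10 for ATP5O, and the probes of a gene are not independent. The part of signal level in the list's values was not tested. The list was written with earlier results of these arrays known, and 1 array per breed allows no test of it.

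All 4 measured genes of complex I, the NADH dehydrogenase, were higher on the pig array, against 52.5% of all named genes. NDUFV2, part of the flavoprotein that takes electrons from NADH, had a log2 difference of 1.01 over 5 probes, which ran from 0.95 to 1.35. The accessory subunits NDUFB8 (0.93, 4 probes), NDUFB6 (0.88, 2 probes) and NDUFC1 (0.78, 2 probes) lay just under 2-fold. None of their 13 probes was lower on the pig array.

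Both measured genes of complex II, succinate dehydrogenase, pointed the same way. SDHB, its iron-sulfur subunit, had a log2 difference of 1.06 over 7 probes, with a range of 0.96 to 1.26. SDHD, which anchors the enzyme in the membrane, had 0.81 over 5 probes. In complex III, UQCR10 was the only gene with a value among 10 listed, so nothing here says whether other subunits of that complex shared its difference. Cytochrome c itself (CYCS), which carries electrons from complex III to complex IV, had 0.64 over 12 probes, and all 12 were higher on the pig array.

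Complex IV, cytochrome c oxidase, held genes on both sides, with a median of 0.54. Of its 7 measured genes 5 were higher on the pig array, against 52.5% of all named genes. NDUFA4, long counted with complex I and now with complex IV, was the highest at 1.21, and its 6 probes stayed between 1.14 and 1.41. COX5B had 0.86, COX7C 0.54 and COX6C 0.17, each over 3 probes, though COX6C turned to -0.15 after quantile and -0.02 after loess normalization. COX7A2 had 0.91 over 5 probes, from 0.72 to 1.01, so every one of its probes lay above the COX7A1 probe at -0.49. The other gene below 0 was COX8H, the RefSeq symbol used here for COX8B, the heart and muscle isoform of subunit 8, with a median of -0.55. Its readings were near background: 24.5 on the minipig array and 16.4 on the pig array for one probe, and 15.5 and 9.57 for the other, which did not stand well above background there and gives a bound of at least 1.39-fold. COX7A1 was well above background on both arrays. The muscle isoforms COX7A1 and COX8H were thus the lower genes of complex IV, an observation made after their values were seen.

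Skeletal and heart muscle markers did not share one direction. Of 15 listed, 14 had a value, 6 were higher on the pig array and 8 on the minipig array, with a median of -0.05 (0.10 after median centring), a highest value of 2.16 (TNNC2) and a lowest of -1.24 (TNNC1), and a summed level of 29.4 on the minipig array and 30.7 on the pig array, in multiples of the intensity at the 75th percentile. Of 10 smooth muscle markers 4 had a value, with a median of -0.76. DES (desmin, -1.998) and CNN1 (calponin, -1.32) were past 2-fold on the minipig side, whereas MYLK had -0.20 and ACTA2, the smooth muscle actin, 0.10 (-0.17 after quantile normalization), and the summed level was 94.7 (minipig array) and 78.8 (pig array). The part of muscle cells in the COX7A1 value was not tested.

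In the ATP synthase, 5 of 6 measured genes were higher on the pig array and 3 at least 2-fold, against 52.5% and 11.7% of all named genes. ATPIF1 (ATP5IF1), which encodes the protein that inhibits ATP hydrolysis by the enzyme and is not a subunit of its core, had a log2 difference of 1.67 from probes at 1.62 and 1.72, higher than ATP5G1. The membrane subunits e and f, ATP5I and ATP5J2, had 1.02 and 0.91 over 2 probes each. ATP5O, the stalk subunit that joins the catalytic head to the stator, was measured by 10 probes and had only 0.23, with 1 probe at -0.03, and it turned to -0.09 after quantile normalization. ATP5G1, at 1.43, lay above all 10 ATP5O probes (-0.03 to 0.49). ATP5G1 has 1 probe and was picked from the upper end of the chain genes, so this distance is no test. The probes of ATP5E, a subunit of the same enzyme, were 1.38 apart.

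**Figure D2:**
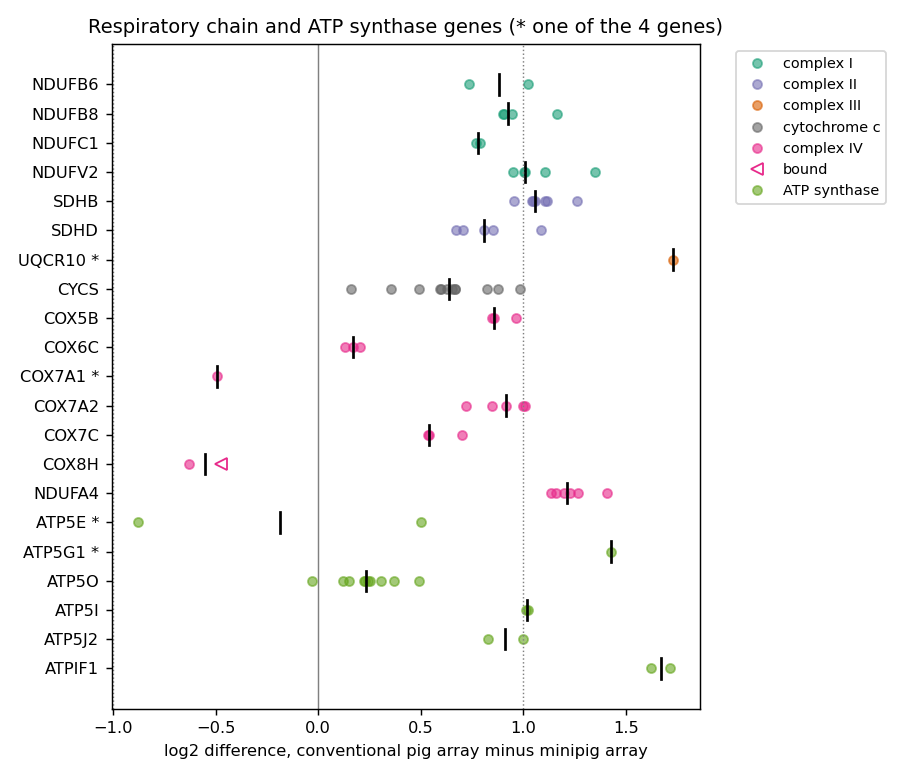
Log2 difference, pig array minus minipig array, of each probe (points, coloured by complex) of the 21 measured respiratory chain and ATP synthase genes; black bars are the median over the probes of a gene, the open triangle is a bound, and dotted lines mark 2-fold. Of 21 genes 18 lie right of 0, UQCR10 is farthest right at 1.73, and COX7A1 and COX8H lie left of 0 with ATP5E split across it.

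Probes of a gene mostly pointed the same way in this list. Of 18 genes with several probes, 16 had all probes on the same side of 0, and the SD between the probes of a gene had a median of 0.11. The exceptions were ATP5O, by 1 probe near 0, and ATP5E, whose SD of 0.97 was the highest of the list. Of the 80 probes in all, 79 were well above background on both arrays, 75 were higher on the pig array and 26 at least 2-fold. The median difference over all probes with a value was -0.12. Genes with several probes count several times among the 80. Of the 79 probes above background on both arrays, 32.9% were at least 2-fold higher on the pig array. Among the probes nearest in level to each of them, this share had a median of 21.8%. By gene, 18 of 21 were higher on the pig array, against 52.5% of all named genes, and 7 at least 2-fold, against 11.7%. UQCR10, ATP5G1 and COX7A1 were the 3 genes with a single probe.

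Other routes of energy metabolism were read from lists of the same kind, all with few genes measured, and their counts stand beside 52.5% of all named genes higher on the pig array, 11.7% at least 2-fold so and 7.96% at least 2-fold on the minipig side. In the tricarboxylic acid cycle, which feeds the chain with electrons, 8 of 10 measured genes (of 19) were higher on the pig array, 1 at least 2-fold, and none was that far on the minipig side, with a median of 0.63. SUCLG1, a subunit of succinyl-CoA ligase, was the highest at 1.06, and IDH3A, of the NAD-dependent isocitrate dehydrogenase, the lowest at -0.41. Citrate synthase (CS) transcripts had 0.999 over 7 probes, and mitochondrial content was not measured here. Of the 8 measured glycolysis genes (of 19), 6 were higher on the pig array, 3 at least 2-fold, 1 was past 2-fold on the minipig side, and the median was 0.47. They ran from GPI at 1.74 to ENO3, the muscle enolase, at -1.04.

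Mitochondrial carriers and porins had a median of 0.28 over 8 genes (of 18), with 5 higher on the pig array (62.5%, near the share of all named genes), 3 of them at least 2-fold, and none 2-fold on the minipig side. UCP2, an uncoupling protein of the inner membrane, was the highest at 2.45 from 1 probe, and UCP3 was the lowest at -0.28 (0.03 after quantile normalization). Only 4 of 15 regulators of mitochondrial biogenesis were measured, too few to give the group a direction: 3 were higher on the minipig array, as were 47.5% of all named genes, none was 2-fold apart, and the median was -0.40. PPARGC1A, a coactivator of respiratory genes, had -0.49, and TFAM, which binds and packages mitochondrial DNA, had 0.44. Of 44 assembly factors only HIGD2A had a value, 0.55. The side chain cleavage system of steroid synthesis, which takes its electrons through a separate mitochondrial route, had CYP11A1 at 2.63 and ferredoxin (FDX1) at 0.63.

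Markers of ovarian cell types differed between the arrays as well. Of all named genes, 52.5% were higher on the pig array, 11.7% at least 2-fold. On the minipig side these shares were 47.5% and 7.96%. Of 15 luteal and steroidogenic markers 11 had a value, 9 were higher on the pig array, 6 at least 2-fold, and the median was 2.46. The summed level of these markers was 229 (minipig array) and 624 (pig array). They ran from LHCGR at -0.62 to SCP2 at 4.52, and STAR had 3.07. Of 12 granulosa markers 9 had a value, 7 were higher on the minipig array, 6 at least 2-fold, with a median of -1.77, a range of -4.11 to 0.09 and a summed level of 52.5 on the minipig array and 23.8 on the pig array. Theca markers (3 of 5 with a value, all higher on the minipig array, -3.76 to -0.62) had a median of -1.74 and summed levels of 82.5 and 12.0 in that order. Oocyte markers (7 of 12 with a value, -2.04 to -0.18) had a median of -1.33 and summed levels of 13.98 and 4.31 in the same order. All 7 gene values were higher on the minipig array, but not all probes. ZP2 had probes at -1.96 and 0.46, and BMP15 at -0.42 and 0.05. BMP15 reached 0.01 after normexp correction. Granulosa probes disagreed in places too. INHBA, whose value is the granulosa median, had probes at -3.91 and 0.37. FST had probes at -0.18 and 0.03 and turned to 0.08 after median centring. AMH probes ran from -2.22 to -0.09, and its value was -0.87 after median centring. All luteal, granulosa, theca and oocyte markers with a probe named on the arrays were above background on at least 1 of them. Their part in the values of the chain genes was not tested.

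Other cell types differed less. Endothelial markers (4 of 8 with a value, 3 higher on the pig array) ran from -0.03 to 0.80 with a median of 0.46 and summed levels of 5.56 on the minipig array and 8.18 on the pig array. Leukocyte markers (5 of 9, 3 higher) ran from -0.25 to 1.04 with a median of 0.22 and summed levels of 6.51 and 8.20. Adipocyte markers (4 of 7, 1 higher) ran from -0.83 to 1.87 with a median of -0.30 and summed levels of 1.65 and 1.58, and PLIN1 and CIDEC, which coat lipid droplets, were near background on each array. None of the 5 erythrocyte markers was named on the arrays.

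**Figure D3:**
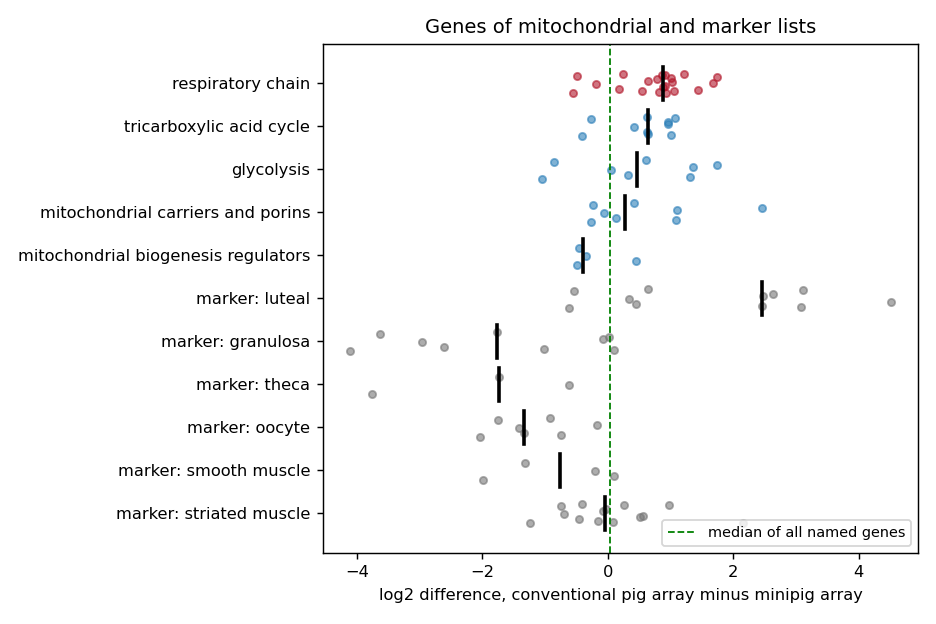
Log2 difference, pig array minus minipig array, of each gene (points) in the respiratory chain list, 4 other lists of energy metabolism and 6 lists of cell type markers; black bars are the list medians and the dashed line is the median of all named genes, 0.04. The respiratory chain genes lie around a median of 0.88, the luteal markers around 2.46 and the granulosa markers around -1.77.

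The distance of UQCR10 and ATP5G1 from zero depended on how the arrays were brought to a common scale, and their side of 2-fold did not. UQCR10 lay between 1.37 (quantile normalization) and 1.98 (normexp background correction), and ATP5G1 between 1.04 (quantile) and 1.58 (median centring). COX7A1 was below 0 under each scaling, from -0.75 (quantile) to -0.34 (median centring). The number of chain genes at least 2-fold higher on the pig array was 7, but 12 after median centring, 4 after loess and 3 after quantile normalization. Median centring moved every difference by 0.15 toward the pig array, and with it 62.7% of all named genes, rather than 52.5%, were higher there. The median of the chain genes lay above that of all named genes by 0.84 on either of these scales, by 0.59 after loess and by 0.44 after quantile normalization. The number of the 21 genes higher on the pig array was 18, with 17 after loess and 16 after quantile normalization.

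**Figure D4:**
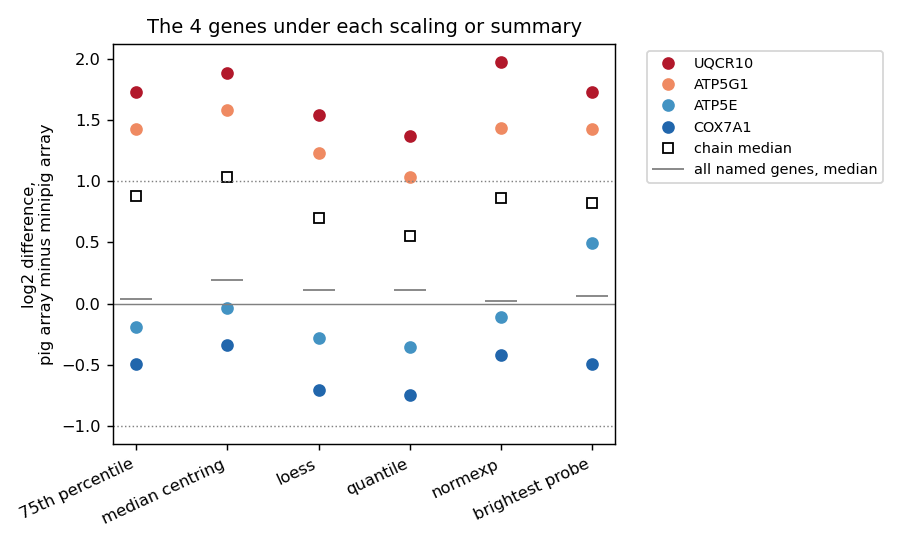
Log2 difference, pig array minus minipig array, of UQCR10, ATP5G1, ATP5E and COX7A1 (filled points), the median of the 21 respiratory chain genes (open squares) and the median of all named genes (grey dashes) under the 75th percentile scaling used here and 5 alternatives. UQCR10 and ATP5G1 stay above the dotted 2-fold line in each, COX7A1 stays below 0, and ATP5E changes from -0.19 to 0.50 when its brighter probe alone is used.

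The deposited log2 table listed 25 of the 80 chain probes, from 11 genes, and in all 25 its conventional pig column was the lower one. UQCR10 had 6.21 in its minipig column and 4.48 in its conventional pig column, and ATP5G1 had 5.91 and 4.49. COX7A1 and ATP5E were not among its 5617 probes, all of which differ by 2-fold or more. The labels of the table and of the scanner files cannot both hold, and the array values alone do not settle which breed an array carried. Other measurements of the study were not used here.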

How the data were processed

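Ovarian RNA was hybridised to 1 single-colour Agilent array per breed. The authors deposited Feature Extraction 10.7.3.1 output with a background-corrected intensity per spot, not normalized between arrays, and a table of log2 values from GeneSpring that holds only probes 2-fold or more apart. Control spots and spots with outlier flags (5 on the minipig array, 10 on the pig array) were left out, repeated spots averaged as log2, and the 75th percentile of each array subtracted. A probe counted as above background when at least 0.5 of its spots did. Where this held on 1 array only, the difference is a bound: the dim array was given its lowest intensity above background, or that of the probe where higher. Gene values are medians over probes.

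Names came from the RefSeq table of Sscrofa11.1; no build is named for the arrays, so no coordinates were used. The genes and lists were chosen with earlier results of these data known. Every measured gene of the chain list is named, with the highest and lowest gene of the other metabolic lists; CS, PPARGC1A and the single markers named within a list were added after their values were seen. Alternatives were median centring, quantile, loess (span 0.3) and normexp (offset 50, on median spot signals, since mean signals were not used here), filters on dim probes, the brightest probe, the mean over probes, and the deposited table. Software was Python 3.11.15, numpy 2.4.6, pandas 2.3.3, statsmodels 0.14.6, matplotlib 3.10.9, R 4.3.3 and limma 3.58.1. The steps were tested on simulated data. The number of arrays limits the precision.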

Additional observations from a re-analysis of the deposited data

How the results depend on the processing

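An alternative counted as moving a value when it shifted it by more than the SD of repeated spots, 0.25, or a count by more than 1.5 times. Quantile normalization moved UQCR10 to 1.37, ATP5G1 to 1.04, COX7A1 to -0.75 and the median of the chain genes to 0.55, and the number at least 2-fold higher on the pig array to 3; loess normalization took this number to 4 and median centring to 12. The brightest probe reversed ATP5E, to 0.50. The labels of the deposited log2 table reversed UQCR10 (-1.73) and ATP5G1 (-1.42); the table gave no value for the other genes or the list, which it holds only in part. Across the scanner alternatives, the median of the chain genes lay between 0.55 and 1.03. The number past 2-fold on the minipig side was 0 in each. Leaving out the 4 genes, or COX8H, was chosen after seeing the data. Naming probes by gene symbol was not run, because no symbol column was used here. No paired analysis was possible because each breed has 1 array. COX8H is limited by background.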
